A study of Homo sapiens with 6 samples.

Results

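SAT1 encodes spermidine/spermine N1-acetyltransferase, the enzyme that acetylates spermidine and spermine and so sends them to oxidation or export. It was examined with 9 further genes of polyamine metabolism. These were ODC1, AMD1, SRM and SMS of synthesis, OAZ1, OAZ2 and AZIN1 of the antizyme system, and DHPS and DOHH. The enzyme of DHPS uses spermidine to modify eIF5A, and that of DOHH completes the modification. The 10 genes are 10 of 59251 gene symbols in the deposited count table, and all 10 were among the 14808 genes with enough reads to test. SAT1 was chosen from the same contrast that is described here, by its lower level in the mutant cells, so its difference is a description and carries no test. The other 9 were chosen by their function, with earlier results of these data known.

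RNA came from HCT116, a human colorectal carcinoma line, in 6 libraries. The wild-type group (WT) has 3 libraries. The mutant group (MUT) has 3 libraries of cells homozygous for the N106S substitution in eIF6 (serine in place of asparagine), a factor that binds the large ribosomal subunit and keeps it from joining the small one. No drug or other agent distinguishes the groups, and both grew in the same serum-containing medium. The mutant cells are CRISPR/Cas9-edited clones. The labels do not say how many clones were used or whether the libraries of a group are separate cultures, so a p-value reflects no more than how far these samples scatter, and that scatter may be technical. The substitution and other features of a clone cannot be told apart.

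Polyamines are small, positively charged molecules that bind RNA and are needed for growth. Ornithine decarboxylase makes putrescine, and aminopropyl groups from decarboxylated S-adenosylmethionine extend it to spermidine and then spermine. Antizymes bind ornithine decarboxylase and send it to the proteasome, antizyme inhibitors hold antizymes back, and acetylation by SAT1 begins the breakdown. Spermidine also gives the side chain of hypusine, an amino acid found in eIF5A, a translation factor. Much of the regulation of these genes is known to act on translation and protein turnover, which RNA levels do not measure.

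The libraries hold 53986494 to 87656970 counts. Without the abundant structural RNAs 7SL, 7SK, RPPH1 and RMRP they hold 10252501 to 21984081. Genes named as ribosomal RNA took 3.91% of MUT replicate 2 and 1.16% of WT replicate 1, against 0.0891% to 0.234% of the other 4 libraries. Levels below are CPM, counts scaled to a common total, relative to the TMM-adjusted library size and not divided by gene length. EIF6 itself stood at 43.3, 47.9 and 47.4 CPM in WT and at 36.7, 30.7 and 35.7 CPM in MUT (log2 fold change -0.43 ± 0.12 SE, edgeR adjusted p = 0.110), and these counts do not show the substitution. Of 8 epithelial markers 7 were tested. KRT8 was higher in MUT without overlap, at 115, 127 and 116 CPM in WT and 150.01, 151 and 146 CPM in MUT, and did not pass the test (log2 fold change 0.32, edgeR adjusted p = 0.255). KRT18 (0.05) and KRT19 (0.11) overlapped, and VIL1 was too scarce to test. EPCAM (log2 fold change -0.34, edgeR adjusted p = 0.139) was lower in MUT without overlap. So was CDH1 (-1.23, edgeR adjusted p = 0.119), with 14 to 54 counts. In all, 4 of the 7 were lower without overlap and 1 was higher. Over all tested genes 26.1% did not overlap and 13.4% were lower without overlap. Of the 7, 2 were called by edgeR (28.6%, against 1.91% of all tested genes), both lower in MUT: CLDN4 (log2 fold change -0.94, adjusted p = 0.0284) and CLDN7 (-0.77, adjusted p = 0.0231). Both calls were lost when WT replicate 1, 2 or 3 or MUT replicate 1 or 3 was left out (edgeR adjusted p from 0.0642 to 0.118). The summed level of the 8 markers, mostly keratins, overlapped, at 443 to 478 CPM in WT and 458 to 517 CPM in MUT. PTPRC and CD3E of leukocytes and CDH5 of endothelium had 0 counts in all 6 libraries. The summed levels of 6 fibroblast markers (0.594 to 3.05 CPM in WT, 1.59 to 2.62 CPM in MUT), 6 leukocyte markers, mostly CD68 (1.04 to 1.07 and 0.818 to 1.43 CPM), and 4 endothelial markers (0.0134 to 0.0434 and 0 to 0.0606 CPM) overlapped too. The part of these markers in the results was not tested.

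Several stretches of reference sequence of these genes follow. The first is the 250 bases before the SAT1 start (RefSeq, GRCh38.p14, chrX:23782923-23783172, plus strand), with the letters CCAAT, read on either strand, in capitals.

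SAT1 upstream: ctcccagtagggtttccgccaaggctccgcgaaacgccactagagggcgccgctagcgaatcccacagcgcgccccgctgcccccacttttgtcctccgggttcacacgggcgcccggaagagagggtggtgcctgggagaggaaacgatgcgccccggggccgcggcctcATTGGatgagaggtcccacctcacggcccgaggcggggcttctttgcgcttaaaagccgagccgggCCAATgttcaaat

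CCAAT occurred 2 times in these bases, and 32% of 35116 such windows in the RefSeq table hold it at least 1 time. None of the other motifs searched on both strands occurred there: CACGTG (in 6.34% of windows), GGGCGG (42.6%) and TGACNNNGC (10.9%). Windows were found for 9 of the 10 genes. CCAAT occurred also in those of AMD1, SRM, SMS, OAZ1 and DHPS, 2 times in SRM and in OAZ1. CACGTG occurred in those of ODC1, SRM and DOHH. A match is a description of the letters only.

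The next stretch is where ribosomes shift frame on antizyme mRNA. Capitals mark the stop codon of the first reading frame, which polyamines help the ribosome pass by a frameshift (GENCODE release 29, GRCh38, chr19:2271425-2271460, plus strand, for OAZ1 and chr15:64691498-64691533, minus strand, for OAZ2).

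OAZ1: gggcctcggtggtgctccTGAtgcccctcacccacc

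OAZ2: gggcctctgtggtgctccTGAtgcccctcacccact

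Both sites share 34 of 36 bases and differ at 2. The last stretch is the start of an exon that an annotated SAT1 transcript carries and the main mRNA lacks (chrX:23784294-23784323, plus strand, the first 30 of 110 bases), with the first in-frame stop codon in capitals.

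SAT1 alternative exon: gttacagtctcTAGcttcgccatgtacatg

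With this exon the reading frame of SAT1 ends after 71 codons, and without it after 171. GENCODE lists 9 SAT1 transcripts of 432 to 1135 bases. The deposited counts are per gene, so SAT1 values below pool these forms.

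SAT1 (Gene ID 6303, chrX:23783173-23786210) was the gene of the 10 that differed most. It stood at 43.3, 59.4 and 55.5 CPM in WT replicates 1, 2 and 3 and at 22.5, 30.1 and 21.7 CPM in MUT replicates 1, 2 and 3. Every MUT library lay below every WT library. The means were 52.8 ± 8.39 CPM in WT and 24.8 ± 4.66 CPM in MUT (SD, n = 3 each), a MUT level 0.470 times that of WT, or -1.09 ± 0.18 SE on the log2 scale. WT replicate 1 was the lowest of its group and MUT replicate 2 the highest of its own, and these are the libraries with the most ribosomal RNA. Without them, in the remaining 4 libraries, a set chosen after the data were seen, the log2 difference was -1.36. Leaving out the lowest WT and the highest MUT library widens the difference whatever their ribosomal RNA. The part of ribosomal RNA in the SAT1 level was not tested. In bulk RNA, fewer cells of a type and less RNA per cell cannot be told apart.

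**Figure D1:**
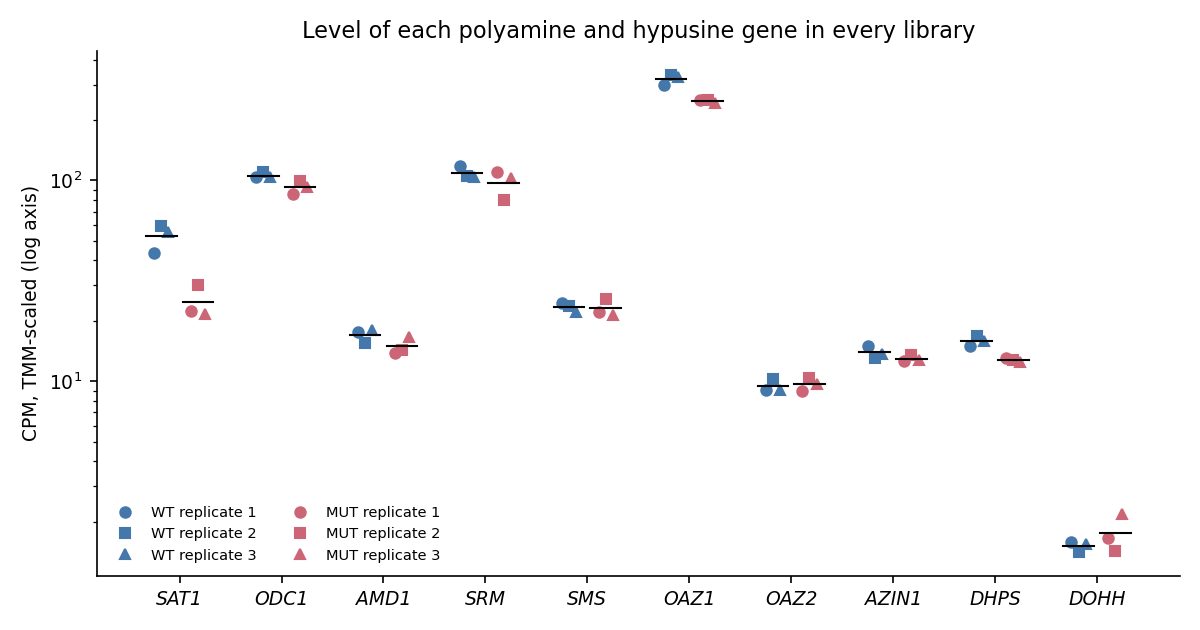
Level of each gene (TMM-scaled CPM, log axis) in every library, WT in blue and MUT in red, with a symbol for each replicate number and a black line at the group mean (n = 3 each). SAT1 runs from 43.3 to 59.4 CPM in WT and from 21.7 to 30.1 CPM in MUT, and the groups also do not overlap for ODC1, OAZ1 and DHPS.

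Of the 10 genes, 1 was called by edgeR's quasi-likelihood test at a Benjamini-Hochberg adjusted p below 0.05, and it was SAT1, on the lower side. Over all tested genes 1.91% were called, 0.925% on the lower side, and since SAT1 was chosen from this contrast nothing is read from its place among them. The count of 1 became 0 when WT replicate 1, 2 or 3 or MUT replicate 1 or 3 was left out, and stayed at 1 without MUT replicate 2. None of the other 9 genes was called, by edgeR, DESeq2 or limma-voom. Of these 9, 1 (DHPS) had an unadjusted p below 0.05, against 19.6% of all tested genes. Their log2 differences were below 0 for 7 and above 0 for 2, while 51.3% of all tested genes lay below 0. Their median was -0.16, against -0.01 over all tested genes. The groups did not overlap for 3 of the 9 (ODC1, OAZ1 and DHPS), all lower in MUT, while 26.1% of all tested genes did not overlap and 13.4% were lower without overlap.

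**Figure D2:**
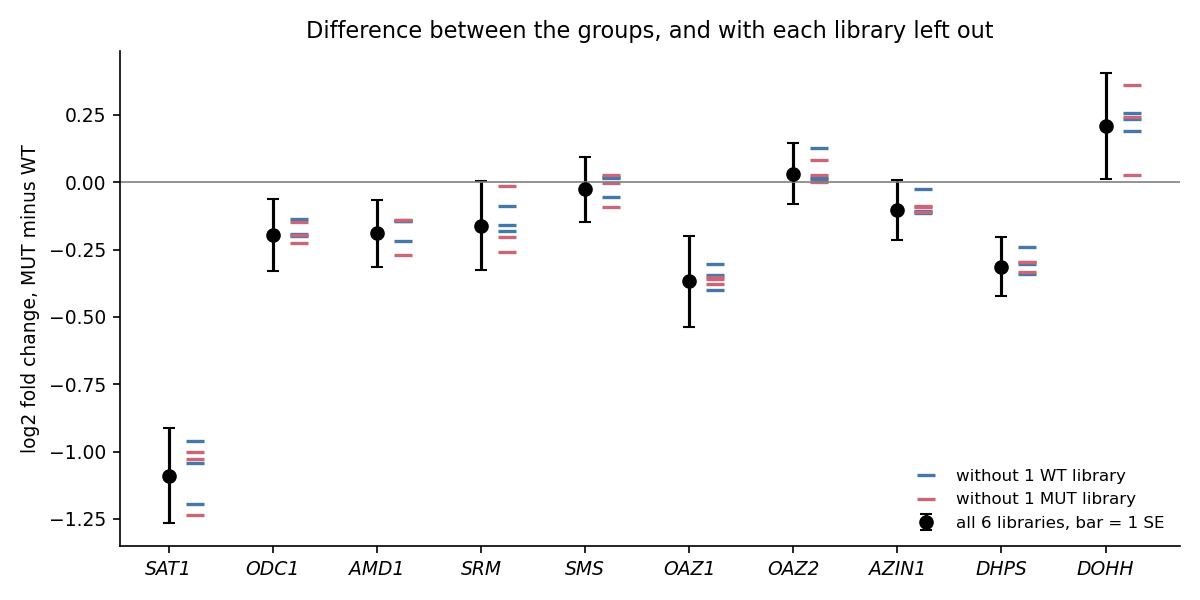
Log2 fold change, MUT minus WT, of each gene over all 6 libraries (black, bar = 1 SE), with short lines for the values when 1 WT (blue) or 1 MUT library (red) is left out. SAT1 stays between -1.24 and -0.96, and the next lowest value in any of these fits is -0.40, of OAZ1.

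Compared between genes per length, on the deposited TPM scale (transcripts per length, scaled to a common total in each library), OAZ1 was the most abundant of the 10, with a mean of 73.9 TPM over the 6 libraries. It was followed by SRM (24.5 TPM), ODC1 (11.95 TPM), SAT1 (10.5 TPM), SMS (4.31 TPM) and DHPS (3.37 TPM). OAZ2 (1.54 TPM), AMD1 (1.38 TPM), AZIN1 (0.933 TPM) and DOHH (0.278 TPM) were lowest. Each gene lay above the next in all 6 libraries, except ODC1 over SAT1 and OAZ2 over AMD1, which held in 4 of 6 each. SAT1 stood above ODC1 in WT replicates 2 and 3 alone. TPM moves with the structural RNAs that share each library, and on this scale the groups overlapped for SAT1: it was at 8.81, 17.8 and 9.57 TPM in WT and 5.56, 14.7 and 6.29 TPM in MUT. As a share of the summed TPM of the 10 genes, which that scaling does not touch, SAT1 made up 9.99 ± 1.29% in WT and 5.81 ± 0.898% in MUT (SD, n = 3 each), without overlap. The share of OAZ1 was 55.8 ± 1.21% in WT and 55.3 ± 1.13% in MUT, with overlap.

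Among the genes of synthesis, ODC1 (chr2:10439968-10448327), which makes putrescine, stood at 104, 109.9 and 104 CPM in WT and at 86.0, 98.9 and 92.3 CPM in MUT. All MUT libraries were below all WT libraries, by little (log2 fold change -0.20 ± 0.14 SE, edgeR adjusted p = 0.476). AMD1 (chr6:110814617-110895713), which supplies decarboxylated S-adenosylmethionine, stood at 17.6, 15.6 and 17.9 CPM in WT and at 13.9, 14.3 and 16.6 CPM in MUT. MUT replicate 3 lay within the WT range, and the difference of -0.19 ± 0.12 SE (log2) did not pass the test (edgeR adjusted p = 0.446).

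SRM (chr1:11054589-11060018), spermidine synthase, stood at 118, 105 and 104 CPM in WT and at 109.95, 79.5 and 103 CPM in MUT. The groups overlapped, and MUT replicate 2 was the only library under 100 (log2 fold change -0.16 ± 0.16 SE, edgeR adjusted p = 0.655). SMS (chrX:21940709-21994837), spermine synthase, stood at 24.5, 23.8 and 22.2 CPM in WT and at 22.2, 25.7 and 21.3 CPM in MUT, with the groups interleaved. Its log2 fold change was -0.03 ± 0.12 SE (edgeR adjusted p = 0.935).

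In the antizyme system, OAZ1 (chr19:2269486-2273488), the main antizyme, stood at 299.9, 337 and 329 CPM in WT and at 252, 253 and 243 CPM in MUT. The groups did not overlap, and the means were 322 ± 19.3 and 249 ± 5.41 CPM (SD, n = 3 each). The log2 fold change of -0.37 ± 0.17 SE did not pass the test (edgeR adjusted p = 0.275). OAZ2 (chr15:64687574-64703281), a second antizyme with a nearly identical frameshift site, stood at 9.05, 10.2 and 9.09 CPM in WT and at 8.96, 10.3 and 9.74 CPM in MUT. Its groups overlapped over the whole range (log2 fold change 0.03 ± 0.11 SE, edgeR adjusted p = 0.917).

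AZIN1, an antizyme inhibitor that resembles ornithine decarboxylase without its activity, stood at 15.05, 13.1 and 13.7 CPM in WT and at 12.7, 13.5 and 12.8 CPM in MUT. MUT replicate 2 lay inside the WT range, and the log2 fold change was -0.10 ± 0.11 SE (edgeR adjusted p = 0.680).

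For hypusine, DHPS (chr19:12672470-12681880), deoxyhypusine synthase, stood at 14.9, 16.8 and 15.9 CPM in WT and at 13.1, 12.8 and 12.4 CPM in MUT. The groups did not overlap, and the means were 15.9 ± 0.932 and 12.8 ± 0.328 CPM (SD, n = 3 each). The log2 fold change of -0.31 ± 0.11 SE did not pass over all genes (edgeR adjusted p = 0.160). DHPS overlaps WDR83, which had 75 to 150 counts, and whether the counting used strand is not stated. DOHH (chr19:3490824-3500674), deoxyhypusine hydroxylase, was the scarcest of the 10, with 67 to 139 counts per library. It stood at 1.58, 1.416 and 1.55 CPM in WT and at 1.66, 1.43 and 2.18 CPM in MUT. MUT replicate 3 alone was above 2, and the log2 fold change was 0.21 ± 0.20 SE (edgeR adjusted p = 0.629). EIF5A, the protein that carries hypusine, stood at 215 ± 6.72 CPM in WT and 183 ± 15.8 CPM in MUT (SD, n = 3 each). It was lower in MUT without overlap, as were 13.4% of all tested genes. Its log2 fold change was -0.23 ± 0.16 SE (edgeR adjusted p = 0.491).

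Ratios between genes inside a library do not depend on how libraries are scaled. The log2 ratio of SAT1 to the median of the other 9 was 1.30, 1.82 and 1.63 in WT and 0.70, 1.07 and 0.38 in MUT, a difference of -0.87. It was lower in all 3 MUT libraries than in any WT library. The log2 ratio of SAT1 to ODC1 differed by -0.90, that to SMS by -1.06 and that to SAT2 by -1.19, each without overlap. ODC1 to OAZ1 sets the RNA of the enzyme against that of the antizyme that sends it to the proteasome. This ratio was -1.53, -1.61 and -1.66 in WT and -1.55, -1.35 and -1.40 in MUT, with overlap. AZIN1 to OAZ1 differed by 0.27, and the groups only just separated, at -4.32 in both WT replicate 1 and MUT replicate 1. DHPS to DOHH differed by -0.51 without overlap, with the lowest value, 2.51, in MUT replicate 3. SRM to SMS was 1.63 in MUT replicate 2 and 2.14 or more in the other 5 libraries.

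**Figure D3:**
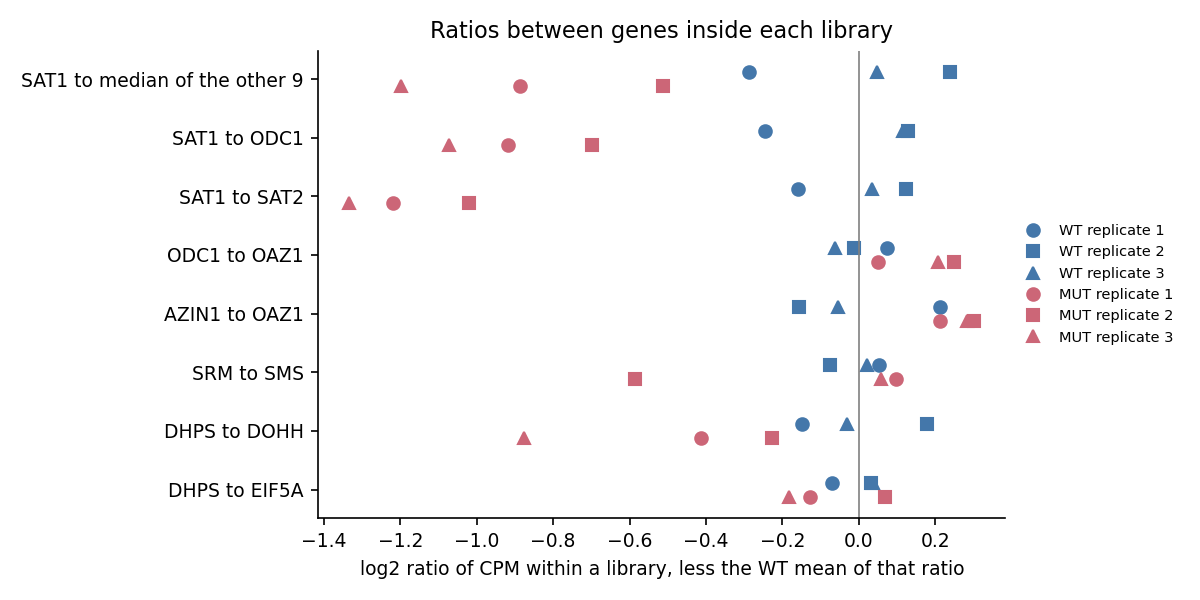
Log2 ratios of CPM between genes within each library, less the WT mean of that ratio, with 1 symbol per library. The 3 ratios with SAT1 lie lower in every MUT library (red) than in any WT library (blue), while ODC1 to OAZ1, SRM to SMS and DHPS to EIF5A overlap.

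How the counts relate to FPKM gives each library's mean length of the RNA counted for a gene, on the assumption that FPKM is scaled to the table's total. This measure was chosen after values were seen. For SAT1 it was 1020, 1004 and 1008 bases in WT and 1011, 1088 and 1024 bases in MUT, with overlap, and MUT replicate 2 was the longest. Of the 9 genes with enough reads, 1 did not overlap (AMD1, with a difference of -25.3 bases from a WT mean of 3332 bases), against 8.9% of 4204 genes. The SRM value was 1185 bases in all 6 libraries.

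The other genes around this metabolism were taken in 8 lists of 55 genes, of which 44 were tested. By edgeR no gene was called higher and 1, MTAP, was called lower, which is 2.27% of the 44 beside 1.91% of all genes. The DESeq2 Wald test and limma-voom each called 3: MTAP and AHCY, lower, and PMF1, higher. Over all 14808 tested genes the DESeq2 Wald test called 764 and limma-voom 262. The median log2 fold change of the 44 was -0.09, against -0.01 over all genes, 14 (31.8%) had an unadjusted p below 0.05, against 19.6% of all tested genes, and 18 (40.9%) did not overlap between the groups, against 26.1%. MTAP, which clears the methylthioadenosine that spermidine and spermine synthesis release, stood at 20.4, 21.3 and 21.1 CPM in WT and at 11.9, 11.95 and 14.6 CPM in MUT. It fell from 20.9 ± 0.494 to 12.8 ± 1.52 CPM (SD, n = 3 each), by -0.71 ± 0.12 SE on the log2 scale (edgeR adjusted p = 0.0282). The call was lost without WT replicate 1 (edgeR adjusted p = 0.121), 2 (0.133) or 3 (0.108) and without MUT replicate 1 (0.109) or 3 (0.0658), and held without MUT replicate 2 (0.0283). The mean length counted for MTAP was 1641, 1753 and 1643 bases in WT and 1853, 1863 and 1883 bases in MUT, longer by 11.2%, without overlap. It ranked 181 of 4204 genes by percent longer in MUT, and the part of transcript form in its count was not tested.

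Over all tested genes edgeR called 1.91%, the share to set beside the count of each list. In acetylation and oxidation beyond SAT1, 0 of 3 tested genes were called. SAT2, a relative of SAT1, had a log2 fold change of 0.10 (edgeR adjusted p = 0.703). SMOX, spermine oxidase, had one of 0.13 (0.730). PAOX, the oxidase of acetylated polyamines, had only 6 to 18 counts per library. Of the 2 antizyme relatives, OAZ3 had 7 to 47 counts and a log2 fold change of 1.04 (edgeR adjusted p = 0.172), and AZIN2 had one of -0.42 (0.399). Of 6 tested transport genes none was called, among them SLC3A2 (-0.11) and GPC1 (0.36). In arginine and ornithine supply 0 of 9 were called, with OAT, which interconverts ornithine and glutamate semialdehyde, at -0.08 and ASS1 at -0.30. ARG2, chosen after its values were seen, had 121, 82 and 57 counts in WT and 31, 626 and 38 counts in MUT, and was high in MUT replicate 2 alone. With all libraries its log2 fold change was 0.87 (edgeR adjusted p = 0.638, and 0.00699 with no filter). Without MUT replicate 2 it turned to -1.40 and passed (edgeR adjusted p = 0.0393), with the other MUT libraries at 0.413 and 0.637 CPM and WT at 1.10 to 1.752 CPM.

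In the S-adenosylmethionine cycle edgeR called 0 of 7, with 2 (AHCY and MAT2B) at an unadjusted p below 0.05, against 19.6% of all tested genes. MAT2B, named after its values were seen, was lower in MUT without overlap (log2 fold change -0.42, edgeR adjusted p = 0.161). AHCY, which splits S-adenosylhomocysteine, stood at 60.7 ± 3.93 CPM in WT and 41.6 ± 1.25 CPM in MUT (SD, n = 3 each) without overlap, and missed the threshold by edgeR (log2 fold change -0.55 ± 0.12 SE, adjusted p = 0.0558). It passed by DESeq2 (adjusted p = 0.00189), by limma-voom (0.0420) and by edgeR with a filter of 1 CPM (0.0368). These are 3 of 18 alternatives. AHCY passed in no fit with 1 library left out (edgeR adjusted p from 0.087 to 0.182). MAT2A, which makes S-adenosylmethionine, had a log2 fold change of 0.14 (edgeR adjusted p = 0.631). Of the 5 methylthioadenosine salvage genes 1 (MTAP) was called and 4 lay below 0, with ENOPH1 at -0.25. Over all tested genes 1.91% were called and 51.3% lay below 0. The hypusine list holds 4 genes: EIF5A, its relatives EIF5A2 and EIF5AL1, and the exporter XPO4. All 4 lay below 0, with a median of -0.27 and none called. Lower without overlap were 3 (EIF5A, EIF5AL1 and XPO4), against 13.4% of all tested genes. An unadjusted p below 0.05 was found for 2 (EIF5AL1 and XPO4), against 19.6%. EIF5AL1 is nearly identical in sequence to EIF5A, so its count is uncertain. Of 8 factors reported to act on SAT1, edgeR called none, with 4 at an unadjusted p below 0.05, against 19.6% of all tested genes. The groups did not overlap for 6 of the factors, 3 higher (KEAP1, PMF1 and RELA) and 3 lower, among them NFE2L2 and CEBPB. Over all tested genes 26.1% did not overlap. Whether the 8 factors depart from these shares was not tested. PMF1, which is reported to work with NRF2 on the SAT1 gene, stood at 8.79 ± 0.762 CPM in WT and 12.7 ± 0.348 CPM in MUT (SD, n = 3 each), higher without overlap by 0.53 ± 0.11 SE on the log2 scale (edgeR adjusted p = 0.0528). It passed by DESeq2 (adjusted p = 0.00873), by limma-voom (0.0490), and by edgeR with a filter of 1 CPM (0.0310), with no filter (0.0370) and without MUT replicate 2 (0.0401). These are 5 of 18 alternatives. PMF1 did not pass without WT replicate 1, 2 or 3 or MUT replicate 1 or 3 (edgeR adjusted p from 0.127 to 0.188). NFE2L2, which encodes NRF2, was at 13.0, 11.009 and 11.5 CPM in WT and 9.18, 11.008 and 10.04 CPM in MUT, so that its groups only just separated (log2 fold change -0.23, edgeR adjusted p = 0.342). KEAP1, the protein that holds NRF2 back, had a log2 fold change of 0.19 (edgeR adjusted p = 0.384). PPARG had a log2 fold change of 0.09 (edgeR adjusted p = 0.833).

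**Figure D4:**
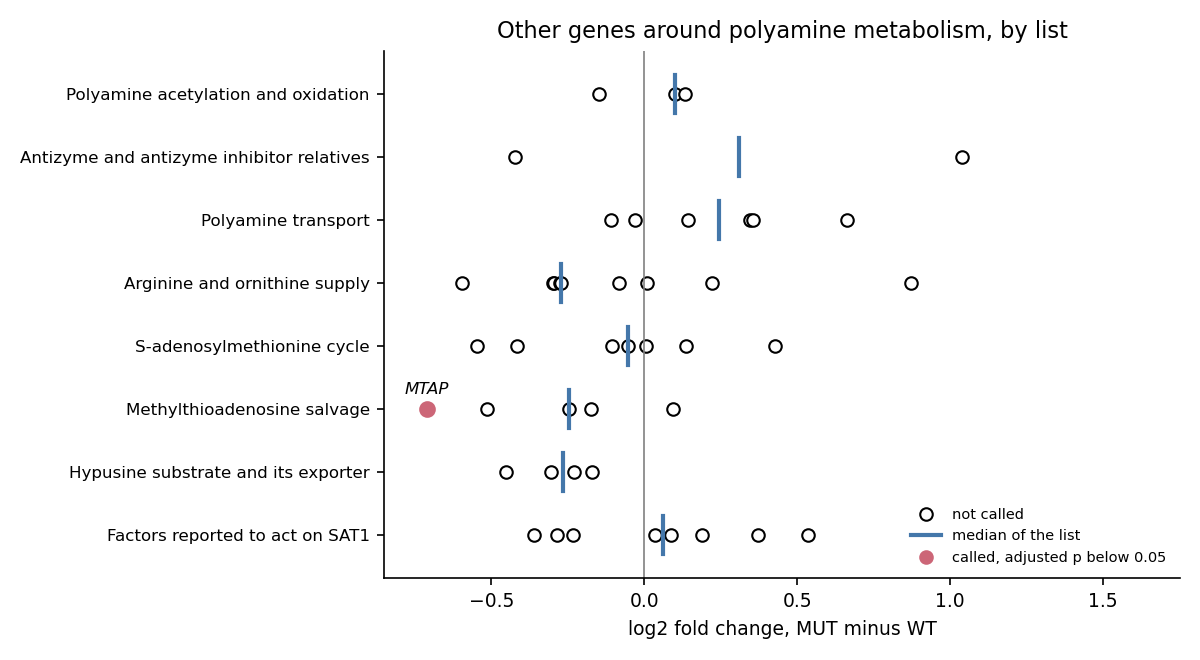
Log2 fold change, MUT minus WT, of the 44 tested genes in the 8 lists, with a blue line at the median of each list and a filled red point for a gene called at an edgeR adjusted p below 0.05. MTAP, at -0.71, is the only filled point.

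SAT1 lies on the short arm of chromosome X, and SMS lies on the same arm. Of 52 other RefSeq genes whose start lies within 2 Mb of the SAT1 start, 15 were tested and 0 were called by edgeR (3, or 20%, at an unadjusted p below 0.05, against 19.6% of all tested genes), with a median log2 fold change of -0.09. The difference was below 0 for 11 and above 0 for 4, while 51.3% of all tested genes lay below 0. Of the 10 with an average log2 CPM above 0, 9 lay below 0, and the median of the 10 was -0.14. The nearest tested genes on each side were ACOT9 (log2 fold change 0.00) and APOO (-0.37, edgeR adjusted p = 0.190). Lower without overlap were 2 genes (13.3%, against 13.4% of all tested genes), named after their values were seen: PRDX4 (-0.42, edgeR adjusted p = 0.0759) and the pseudogene EEF1B2P3 (-0.84, adjusted p = 0.0880). The DESeq2 Wald test called EEF1B2P3 alone among the 15. Reads counted for a pseudogene may come from its parent gene, so the EEF1B2P3 count is uncertain.

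**Figure D5:**
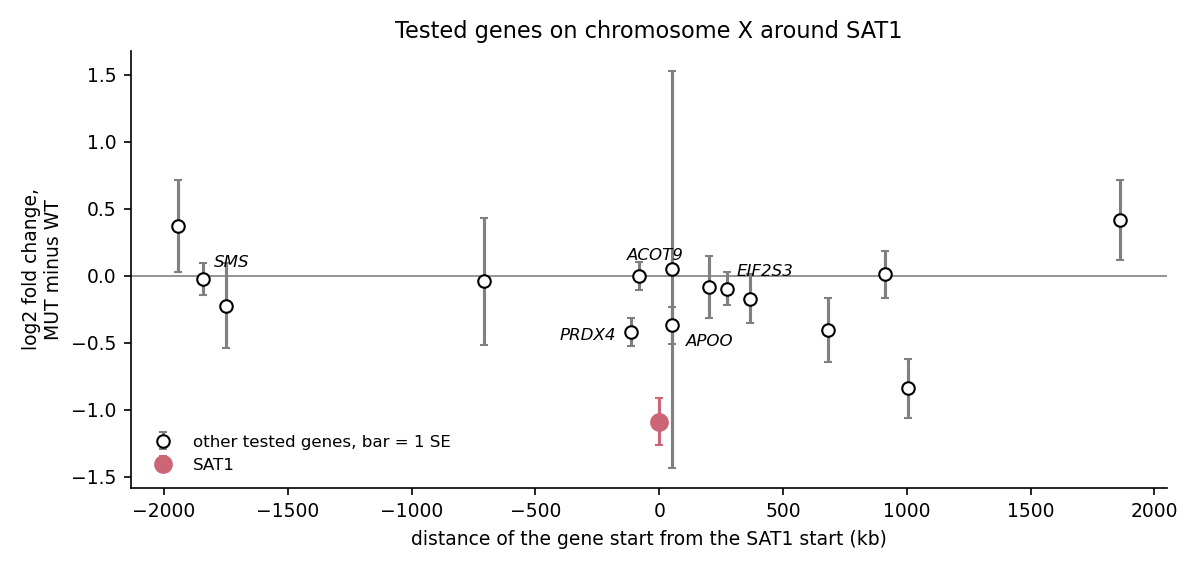
Log2 fold change, MUT minus WT (bar = 1 SE), of tested genes against the distance of their start from the SAT1 start in kb. SAT1 (red) is at -1.09 and the other 15 genes lie between -0.84 and 0.42.

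The genes whose pattern over the 6 libraries was most like that of SAT1 were ranked by the root mean square difference of their centred log2 CPM, among 1254 protein-coding genes whose average log2 CPM was 4 or more. These were IMPDH2 (0.201), RPL3 (0.206), APRT (0.221), HNRNPA1 (0.226) and GABARAPL2 (0.228). IMPDH2, the rate-limiting enzyme of guanine nucleotide synthesis, stood at 117, 137 and 141 CPM in WT and at 74.1, 69.5 and 68.2 CPM in MUT. RPL3 and HNRNPA1 have many processed pseudogenes, so their counts are uncertain. Among the genes of the polyamine set that could be ranked, OAZ1 was nearest (0.399, rank 147), then ODC1 (rank 418), AMD1 (600), SMS (743) and SRM (798). The ranking describes likeness over 6 libraries of 2 groups and was not tested.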

How the data were processed

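RNA of 3 WT and 3 MUT libraries was analysed, grouped by their titles. The authors deposited tables of expected counts (estimated counts, all whole numbers here), FPKM and TPM for 59251 symbols. Build GRCh38 (hg38) and the tools RSEM 1.2.28, STAR 2.5.2b, DESeq2 1.42.0 and FastQC 0.12.1 are listed, without roles, per the submitters' processing notes. TPM and FPKM, normalised by the authors for length and depth, served for levels between genes, for the length counted and for alternatives. An estimator such as RSEM divides reads between near-identical genes.

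The expected counts were fitted in R 4.3.3 with edgeR 4.0.16 after filterByExpr (minimum count 10, total 15), with TMM factors, the quasi-likelihood F-test, no covariate and Benjamini-Hochberg adjustment over all tested genes, called below 0.05. The steps were tested on simulated data. The SE of a log2 fold change was computed as its absolute value over the square root of F. CPM is given per library or as mean ± SD. limma 3.58.1 and DESeq2 1.42.0 served for alternatives.

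The genes and lists were chosen with earlier results of these data known. Named were the 10 genes, EIF6, SAT2, SMOX, PAOX, EIF5A, called genes and the 2 highest by TPM of each list, and the 5 genes most like SAT1. Alternatives were other scalings, filters, tools and units, a replicate block and leaving out each library. The set of 4 libraries lowest in ribosomal RNA, and centring on the median of all genes, were chosen after seeing the data. A gene of the lists is not reported by name here. Ribosome profiling was not analysed here.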

Additional observations from a re-analysis of the deposited data

How the results depend on the processing

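The SAT1 log2 fold change was below 0 in all 18 alternatives, from -1.24 to -0.96 with 1 library left out, -1.36 in the 4 libraries lowest in ribosomal RNA and -0.82 on log2(TPM + 1). Library size alone, TPM and FPKM shifted the median of all genes by 0.33 to 0.54, and fold changes there, that of SAT1 included, are given relative to it. Before this SAT1 was at -0.51 by library size and -0.46 on log2(TPM + 1), and 7 of 10 and 6 of 8 genes of the set changed sign. The genes called, 283, became 108 by library size alone, 1195 with no filter, 462 at 1 CPM, 764 by DESeq2, 21 on log2(TPM + 1), 10 on log2(TPM + 0.1), 13 on log2(FPKM + 1) and 27 to 442 with 1 library left out. The count of the 10 called, 1, became 0 by library size alone and on both TPM scales and FPKM, and was 0 to 1 with 1 library left out. The count in the lists, 1 (MTAP), became 3 at 1 CPM, by DESeq2 and by limma-voom (with AHCY and PMF1) and with no filter (with ARG2 and PMF1), 0 by library size alone and on the TPM and FPKM scales, and 0 to 3 with 1 library left out. Of the genes around SAT1, 0 called became 1 with no filter, by DESeq2 and in the 4 libraries. The cause of these moves was not tested.

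The sign of ARG2 turned from 0.87 to -1.40 without MUT replicate 2, with a call (edgeR adjusted p = 0.0393). It also turned with the replicate block (-0.07) and in the 4 libraries (-1.18), without a call. Among the other genes followed through the alternatives, signs of values near 0 turned, in each case without a call. On log2(TPM + 1) these were EIF5A (0.011), ODC1 (0.013), SMS (0.12) and SRM (0.064). On log2(TPM + 0.1) they were OAT (0.023) and SMS (0.087), on log2(FPKM + 1) OAT (0.045), SLC3A2 (0.016), SMS (0.14) and SRM (0.016), and by library size alone SMS (0.0082). In the 4 libraries they were OAZ2 (-0.034), PPARG (-0.14), SAT2 (-0.0029), SMOX (-0.018) and SRM (0.043). With 1 library left out PAOX ranged from -0.63 to 0.11, PPARG from -0.048 to 0.27, SLC3A2 from -0.18 to 0.051 and SMS from -0.093 to 0.028. Deviations of same-numbered libraries correlated over 4535 genes at -0.689, -0.349 and 0.408. The highest value of any pair was 0.64, of WT replicate 1 with MUT replicate 2, the libraries with the most ribosomal RNA. With 3 libraries per group these values depend on one another, so they cannot decide whether replicate numbers pair the libraries. With the replicate block 296 genes were called, 1 of the 10 and 1 in the lists, SAT1 was at -1.09, and MTAP kept its call (edgeR adjusted p = 0.0379).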
